A study of Homo sapiens with 20 samples.

Results

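Serum response factor (SRF), its muscle coactivator myocardin (MYOCD) and 8 contractile genes of the SRF pathway (ACTA2, ACTG2, TAGLN, CNN1, MYL9, TPM1, TPM2 and CALD1) were followed in human melanoma cells with and without FRA1, the AP-1 subunit encoded by FOSL1. These 10 genes were taken by name from 58870 genes with deposited RNA-seq counts, and 26 of 54563 FRA1 Cut&Run peaks lay within 10 kb of 7 of them. MYOCD was chosen from its large change upon FRA1 silencing in A375 cells, and the other genes were added as SRF and the contractile targets it is known for. Values of that A375 contrast are therefore given as a description without p-values. RNA was sequenced from A375 and 1205Lu cells, both established human melanoma cell lines, after non-targeting siRNAs (si-NT) or siRNAs against human FRA1 (si-FRA1), with 3 samples in each of the 4 groups. FRA1 Cut&Run, which maps where a protein sits on the genome, was carried out in both lines with 3 FRA1 antibody samples and 1 IgG control each. The labels name no siRNA for the Cut&Run samples, so no binding after silencing was measured. Nothing in the labels says whether replicates came from separate cultures, so the p-values measure the spread between these samples, which may be technical. Both lines are tumor cells of melanocytic origin and not smooth muscle, and silencing was transient and incomplete.

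SRF binds the CArG box, a short A/T-rich sequence flanked by CC and GG, in the promoters of muscle, cytoskeletal and immediate early genes. On its own it activates weakly, and it relies on coactivators of competing families. Myocardin and the related MRTFs drive the contractile and cytoskeletal genes, and ternary complex factors (TCFs) drive the immediate early genes in response to growth factor signaling. Myocardin is largely restricted to heart and smooth muscle, whereas MRTFs and SRF are present in most cells.

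The promoters of the group were read from RefSeq windows on GRCh38 that run from 250 bases before to 50 bases after a transcription start. Of the 10 genes, 7 matched with 13 windows, and MYOCD, TAGLN and MYL9 had none. The CArG box was searched on both strands as a 10-base motif with no G or C among its 6 middle bases, and it was found in 2 of the 13 windows, those of SRF and ACTG2, against 1.29% of 35116 windows of all genes. With 1 G or C allowed among the middle bases, a definition added after the data were seen, the canonical ACTA2 window held 2 sites and a CALD1 window held 1, against 6.94% of all windows with such a site. No window of the group held the FOS/JUN sites TGACTCA or TGAGTCA (the same letters read from opposite strands), which 4.95% of all windows held. The 3 genes with 2 sites each are shown by the 250 bases before the start, or for ACTG2 from the same first base to the end of its second box, 5′ to 3′ on the strand of the gene, with the CArG boxes of SRF and ACTG2 and the CArG-like sites of ACTA2 in capitals.
SRF, chr6:43171019-43171268, plus strand: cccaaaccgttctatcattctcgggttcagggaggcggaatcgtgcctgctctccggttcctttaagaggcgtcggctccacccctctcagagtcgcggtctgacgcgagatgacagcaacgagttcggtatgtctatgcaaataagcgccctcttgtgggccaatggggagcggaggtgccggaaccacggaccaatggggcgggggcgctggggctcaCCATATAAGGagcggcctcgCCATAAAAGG
ACTG2, chr2:73892758-73892944, plus strand: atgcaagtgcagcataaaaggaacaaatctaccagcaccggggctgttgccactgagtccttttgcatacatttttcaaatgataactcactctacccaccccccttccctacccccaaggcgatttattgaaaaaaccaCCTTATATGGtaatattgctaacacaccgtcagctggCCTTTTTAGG
ACTA2, chr10:88952774-88953023, minus strand: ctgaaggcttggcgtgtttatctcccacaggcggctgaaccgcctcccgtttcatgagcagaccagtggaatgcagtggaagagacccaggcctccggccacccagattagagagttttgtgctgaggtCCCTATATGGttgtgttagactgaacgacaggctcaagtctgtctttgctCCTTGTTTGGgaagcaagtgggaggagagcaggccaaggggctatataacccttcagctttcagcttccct
The SRF boxes CCATATAAGG and CCATAAAAGG started 30 and 10 bases before its transcription start, so SRF carries in its own promoter the site its protein binds. The ACTG2 boxes CCTTATATGG and CCTTTTTAGG started 110 and 73 bases before the start, and the ACTA2 sites CCCTATATGG and CCTTGTTTGG started 121 and 71 bases before it. A match describes the sequence only and shows no binding.

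Totals ranged from 20573412 to 32518903 counts per RNA-seq sample. The mRNA of FOSL1 left upon silencing was 6.22% in A375 cells and 14.1% in 1205Lu cells, which matched the siRNA labels in every sample. The labels give the library source of A375 si-FRA1 replicate 3 as genomic, and it was used like the other replicates. Levels are given as CPM, counts scaled to a common library size by the TMM method of edgeR. Fold changes are si-FRA1 over si-NT unless stated otherwise. Calls needed both an adjusted p below 0.05 and an absolute log2 fold change above 1. In bulk RNA, fewer cells that express a gene and less RNA per cell cannot be told apart. Samples of A375 and 1205Lu cells were fitted separately.

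MYOCD (ENSG00000141052.17, chr17:12665890-12768949, plus strand) was at 1.22, 1.07 and 1.2 CPM in the A375 si-NT samples and at 11.4, 11.6 and 10.7 CPM in the A375 si-FRA1 samples. These values rested on 27, 27 and 29 counts against 374, 278 and 264 counts, and every si-FRA1 sample lay far above every si-NT sample. The fold was 9.62, a log2 fold change of 3.27 (SE 0.155), and it stayed between 3.20 and 3.30 on the log2 scale under 13 alternative settings. In 1205Lu cells MYOCD was at 0.830, 0.666 and 0.616 CPM with si-NT and at 0.389, 0.579 and 0.287 CPM with si-FRA1. The groups did not overlap and the si-FRA1 samples were the lower ones, but they held only 6 to 13 counts against 15 to 25. The log2 fold change of -0.76 (SE 0.466) did not pass the test (adjusted p = 0.22, edgeR). The change in A375 cells thus exceeded that in 1205Lu cells by 4.02 on the log2 scale (SE 0.364), given without a test because it contains the contrast MYOCD was chosen from. The antisense transcripts that overlap the gene, MYOCD-AS1 and ARHGAP44-AS1, were each at a mean of 0.227 CPM or lower in every group.

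SRF (ENSG00000112658.8, chr6:43171269-43181506, plus strand), the DNA-binding partner of myocardin, was at 56.0, 52.0 and 53.4 CPM in A375 si-NT samples and at 16.9, 13.7 and 14.4 CPM in A375 si-FRA1 samples. The levels thus moved opposite to those of MYOCD, with a gap between the groups many times the spread within them. The log2 fold change was -1.84 (SE 0.0668), a 3.57-fold lower level. In 1205Lu cells SRF was at 55.6, 57.2 and 58.3 CPM with si-NT and at 41.5, 42.7 and 44.3 CPM with si-FRA1. It fell by 0.43 on the log2 scale there (SE 0.0456, adjusted p = 1.7e-07, edgeR), a 1.35-fold lower level with all 3 si-FRA1 samples below the si-NT samples. SRF was therefore lower upon silencing in both lines, and the effect in A375 cells was the more negative by -1.42 (SE 0.0841).

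**Figure D1:**
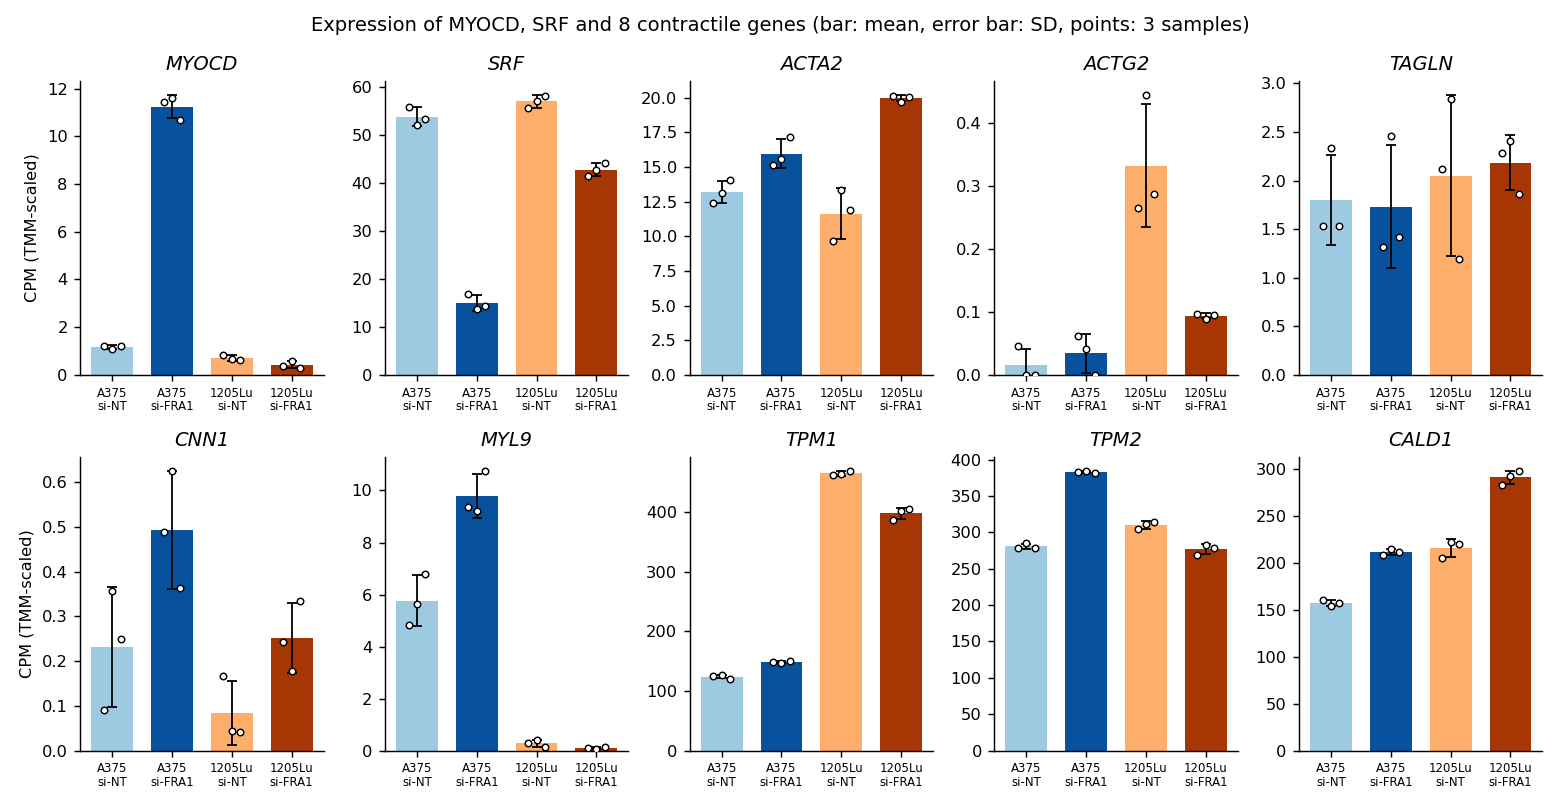
Expression of the 10 genes in CPM (vertical axes from 0, on a scale of their own in each panel) by cell line and siRNA; bars are means, error bars SD and points the 3 samples. MYOCD was at a mean of 11.2 CPM in the A375 si-FRA1 samples and at 1.16 CPM or lower in the other 3 groups, while SRF was lowest in the A375 si-FRA1 samples, at a mean of 15.0 CPM.

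The smooth muscle actins were low in both lines. ACTA2 (ENSG00000107796.13, chr10:88935074-88991339, minus strand), which encodes the α-actin of smooth muscle and myofibroblasts, was at 12.4, 13.1 and 14.0 CPM in A375 si-NT samples and at 15.2, 15.6 and 17.1 CPM in A375 si-FRA1 samples, a log2 fold change of 0.27 (SE 0.0876). In 1205Lu cells it was at 9.69, 13.3 and 11.9 CPM with si-NT and at 20.1, 19.7 and 20.1 CPM with si-FRA1. All 3 si-FRA1 samples lay above the si-NT samples, and ACTA2 rose 1.71-fold, a log2 fold change of 0.77 (SE 0.0998, adjusted p = 2.6e-06, edgeR). The effect in A375 cells differed from that in 1205Lu cells by -0.51 (SE 0.139). ACTA2 overlaps STAMBPL1 and FAS on the opposite strand. FAS was at means of 22.3 CPM with si-NT and 31.2 CPM with si-FRA1 in A375 cells and of 16.6 and 22.0 CPM in 1205Lu cells, and STAMBPL1 was at 32.6 and 25.8 CPM and at 6.66 and 9.38 CPM. The libraries were strand-specific, but whether the counting used the strand is not given in the sources used here, so reads of ACTA2 and of these genes may not be told apart, and their part in the ACTA2 values was not tested. ACTG2 (ENSG00000163017.13, chr2:73892314-73919865, plus strand), the γ-actin of enteric smooth muscle, whose coding sequence is 84.7% identical to that of ACTA2, had 0 to 2 counts in each A375 sample, no more than the floor of 3 counts. In 1205Lu cells it had 8, 10 and 7 counts with si-NT and 2, 2 and 2 with si-FRA1, and it was too low to be tested. ACTG2 was thus barely detected in either line.

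Markers of smooth muscle differentiation stayed low in all groups. TAGLN (ENSG00000149591.16, chr11:117199370-117207464, plus strand), which encodes the actin-binding protein SM22α, was at 1.54, 2.33 and 1.53 CPM in A375 si-NT samples and at 1.32, 2.46 and 1.42 CPM in A375 si-FRA1 samples. Its groups overlapped, with a log2 fold change of -0.08 (SE 0.291). In 1205Lu cells it was at 2.12, 2.84 and 1.19 CPM with si-NT and at 2.29, 2.41 and 1.86 CPM with si-FRA1, which overlapped too (log2 fold change 0.08, SE 0.279, adjusted p = 0.86, edgeR). TAGLN overlaps PCSK7 on the opposite strand, which was at 48.7 to 55.5 CPM in the mean of each group. CNN1 (ENSG00000130176.8, chr19:11538767-11550323, plus strand), which encodes calponin, a regulator of actomyosin, had 2, 9 and 6 counts in A375 si-NT samples and 16, 15 and 9 counts in A375 si-FRA1 samples. It had 5, 1 and 1 counts in 1205Lu si-NT samples and 5, 4 and 7 counts in 1205Lu si-FRA1 samples. In CPM, both si-FRA1 groups of CNN1 lay above their si-NT groups without overlap, at means of 0.493 against 0.231 CPM and of 0.252 against 0.0838 CPM. Its counts were below the expression filter, so it was not tested in either line.

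MYL9 (ENSG00000101335.10, chr20:36541497-36551447, plus strand) encodes the regulatory light chain through which phosphorylation starts smooth muscle contraction. It was at 4.84, 5.65 and 6.79 CPM in A375 si-NT samples and at 9.36, 9.22 and 10.8 CPM in A375 si-FRA1 samples, without overlap and with a log2 fold change of 0.75 (SE 0.131). The 1205Lu samples had 9, 9 and 3 counts with si-NT and 2, 1 and 3 counts with si-FRA1, too few to be tested. Its 1.69-fold higher level was the largest fold change among the 6 contractile genes tested in A375 cells.

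TPM1 (ENSG00000140416.21, chr15:63042620-63071915, plus strand) and TPM2 (ENSG00000198467.14, chr9:35681992-35690056, minus strand) encode tropomyosins, which lie along actin filaments and control the access of myosin. Both are expressed in muscle and non-muscle cells, and their coding sequences are 79.0% identical. TPM1 was at 124.8, 126.1 and 120.8 CPM in A375 si-NT samples and at 149.2, 147.7 and 151.2 CPM in A375 si-FRA1 samples, a log2 fold change of 0.26 (SE 0.0292). The 1205Lu samples were at 462.1, 463.5 and 469.7 CPM with si-NT and at 387.7, 401.4 and 405.3 CPM with si-FRA1, and TPM1 fell by 0.24 on the log2 scale (SE 0.0189, adjusted p = 2.1e-09, edgeR). Each group of TPM1 was apart from the other one of its line, in opposite directions. TPM2 showed the same arrangement, at 278.8, 284.6 and 278.1 CPM against 382.5, 384.6 and 381.4 CPM in A375 cells, a log2 fold change of 0.44 (SE 0.0212). In 1205Lu cells TPM2 was at 304.7, 310.8 and 314.3 CPM with si-NT and at 269.0, 283.1 and 278.7 CPM with si-FRA1, and it fell by 0.18 on the log2 scale (SE 0.0223, adjusted p = 1.5e-06, edgeR). The effects in A375 cells exceeded those in 1205Lu cells by 0.49 (SE 0.0343) for TPM1 and by 0.61 (SE 0.0323) for TPM2.

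CALD1 (ENSG00000122786.20, chr7:134744252-134970729, plus strand), which encodes the actin-binding protein caldesmon in smooth muscle and non-muscle forms, was the contractile gene with like values in both lines. It was at 160.8, 154.0 and 157.5 CPM in A375 si-NT samples and at 208.7, 214.2 and 211.2 CPM in A375 si-FRA1 samples, a log2 fold change of 0.42 (SE 0.0262). In 1205Lu cells it was at 204.7, 221.7 and 220.2 CPM with si-NT and at 283.3, 292.1 and 297.3 CPM with si-FRA1, and it rose by 0.42 on the log2 scale (SE 0.0279, adjusted p = 2.2e-10, edgeR). The 2 effects differed by -0.01 (SE 0.0419). Gene-level counts do not separate the muscle isoforms of CALD1, TPM1 and TPM2 from the others.

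**Figure D2:**
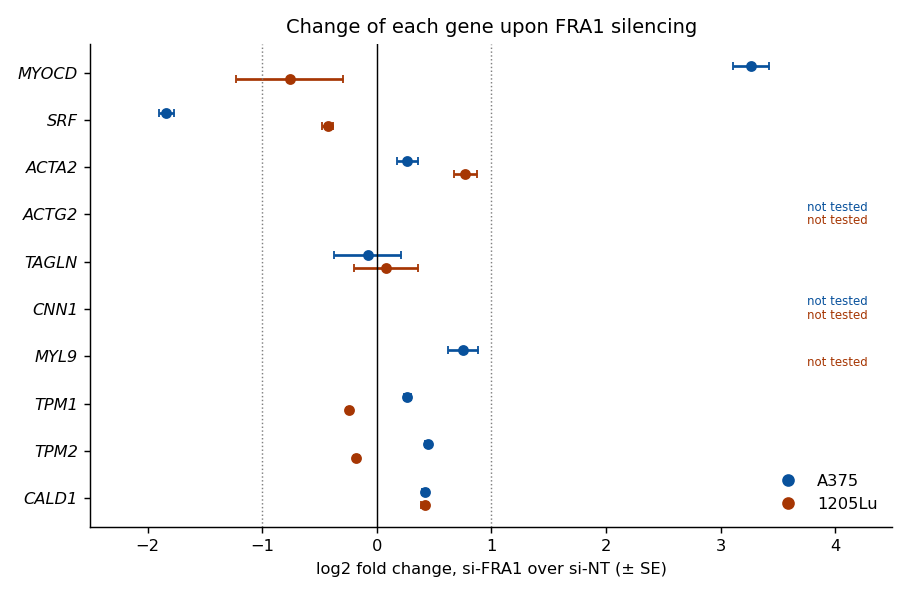
Log2 fold changes of si-FRA1 over si-NT (horizontal axis) with their standard errors for each gene, in A375 cells (blue) and 1205Lu cells (brown); dotted lines mark the fold limit. MYOCD at 3.27 and SRF at -1.84 lie past it in A375 cells, and all 7 genes tested in 1205Lu cells lie within it.

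Of the 10 genes, 8 were tested in A375 cells. Of these, 6 were higher and 1 was lower at the adjusted p alone, against 29.9% and 27.8% of 13598 protein-coding genes tested, and past the fold limit there were MYOCD on the higher side (background 2.78%) and SRF on the lower side (background 2.51%). These counts come from the contrast MYOCD was chosen from and are given as a description. In 1205Lu cells 7 genes were tested, and ACTA2 and CALD1 rose while SRF, TPM1 and TPM2 fell at the adjusted p alone. That is 2 higher and 3 lower of 7, against 24.0% and 23.0% of 13728 protein-coding genes. None was past the fold limit, which 1.11% of genes passed on the higher side and 1.86% on the lower side, so a count of 0 among 7 genes is near the background. At an adjusted p under 0.05 without the fold limit the same edgeR fit gave 5 genes. The median log2 fold change of the genes tested was 0.34 in A375 cells and -0.18 in 1205Lu cells, against 0.01 and 0.00 over all protein-coding genes tested.

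With si-NT, the lines differed most in MYL9 and TPM1. This comparison put A375 over 1205Lu cells, and its A375 samples are shared with the silencing contrast. MYL9 was 19.7-fold higher in A375 cells (log2 fold change 4.30, SE 0.306, adjusted p = 1.1e-10, edgeR), with 107 to 164 counts per sample against 3 to 9. TPM1 was 3.95-fold lower in A375 cells (log2 fold change -1.98, SE 0.0245, adjusted p = 6.1e-23, edgeR). CALD1, TPM2 and SRF were also higher in 1205Lu cells, by smaller log2 differences of -0.53 (adjusted p = 8.0e-12), -0.22 (adjusted p = 5.0e-08) and -0.16 (adjusted p = 0.0027) in the same edgeR fit of A375 over 1205Lu. The SRF groups overlapped in CPM, and without A375 si-NT replicate 2 its difference was -0.10 and no longer passed. MYOCD had a log2 difference of 0.64 (SE 0.351) and did not pass (adjusted p = 0.11, edgeR), nor did ACTA2 (0.12, adjusted p = 0.36, edgeR) and TAGLN (-0.25, adjusted p = 0.45, edgeR). In an edgeR fit of all 12 samples the MYOCD difference was 0.70 and passed (adjusted p = 0.015), and with no filter that of ACTA2 was 0.25 and passed (adjusted p = 0.049). Of 8 genes tested, 1 was thus higher in A375 cells and 4 in 1205Lu cells at the adjusted p, against 42.4% and 40.4% of 14288 protein-coding genes, and 1 and 1 past the fold limit, against 18.4% and 20.2%.

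To set genes side by side, levels were divided by the length in kb of 1 canonical transcript per gene (GENCODE release 44). Which isoforms were expressed is not known, so the order may depend on this choice of length. In A375 si-NT samples the order was TPM2 (235.7 ± 2.98 CPM per kb, SD, n = 3), TPM1 (101.8 ± 2.28), CALD1 (31.4 ± 0.679), SRF (12.7 ± 0.472), ACTA2 (9.78 ± 0.596), MYL9 (2.07 ± 0.352), TAGLN (0.475 ± 0.122), CNN1 (0.154 ± 0.0890), MYOCD (0.136 ± 0.00971) and ACTG2 (0.01003 ± 0.0174). Of the neighbours in this order, CNN1 and MYOCD overlapped. In A375 si-FRA1 samples MYOCD stood at 1.31 ± 0.0574 CPM per kb, above TAGLN and CNN1, while SRF stood at 3.55 ± 0.394 and overlapped MYL9 at 3.51 ± 0.305. In 1205Lu si-NT samples TPM1 led with 382.2 ± 3.34 CPM per kb, followed by TPM2 (260.5 ± 4.08), CALD1 (43.0 ± 1.88), SRF (13.5 ± 0.315) and ACTA2 (8.63 ± 1.36). TAGLN (0.542 ± 0.219), ACTG2 (0.221 ± 0.0649), MYL9 (0.0983 ± 0.0502), MYOCD (0.0822 ± 0.0131) and CNN1 (0.0559 ± 0.0475) made up the low end, where MYL9, MYOCD and CNN1 overlapped. Even at its highest, MYOCD per kb was below SRF in every group.

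Across the 12 samples, the genes whose log2(CPM + 1) was most like that of MYOCD among 12889 protein-coding genes were RPL31 and COL3A1 (Pearson's r of 0.991 each), followed by RPS20, TAGLN2 and APC (0.987 each). The points share 4 groups of 3 libraries, and a single group that is high, the A375 si-FRA1 group, shapes each of these values. COL3A1, a fibrillar collagen, was at means of 1.11 and 9.45 CPM in A375 cells without and with silencing and at 0.305 and 0.167 CPM in 1205Lu cells. TAGLN2, a relative of TAGLN that is expressed outside muscle, was at 128.3 and 201.5 CPM in A375 cells and at 108.6 and 112.9 CPM in 1205Lu cells. RPL31 and RPS20 encode ribosomal proteins and moved over a smaller range, from 411.0 to 562.6 CPM and from 441.8 to 621.3 CPM in A375 cells. Within the group, r with MYOCD was 0.922 for TPM2, 0.804 for MYL9, 0.064 for ACTA2, -0.204 for CALD1, -0.275 for TAGLN, -0.601 for TPM1 and -0.934 for SRF. These values contain the contrast MYOCD was chosen from and the differences between the lines, and are a description. CALD1 and TPM1 had a negative r although both were higher upon silencing in A375 cells, as was MYOCD.

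The other genes of the pathway were taken from lists written by role. Among 11 SRF cofactors and related factors, 10 were tested in each line, with 2 higher and 4 lower in A375 cells (median log2 fold change -0.20) and 4 higher and 2 lower in 1205Lu cells (median 0.02). Over all protein-coding genes tested, 29.9% passed as higher and 27.8% as lower in A375 cells, and 24.0% and 23.0% in 1205Lu cells. MRTFA, the widely expressed relative of MYOCD, had a log2 fold change of -0.64 (SE 0.102) in A375 cells and of 0.15 (SE 0.0484, adjusted p = 0.015, edgeR) in 1205Lu cells. MEF2C, a muscle transcription factor, had 0.51 (SE 0.106) in A375 cells and fell by 0.36 (SE 0.0715, adjusted p = 0.00041, edgeR) in 1205Lu cells. KLF4, a repressor of smooth muscle genes, rose by 0.32 (SE 0.0799, adjusted p = 0.0028, edgeR) in 1205Lu cells and had 0.17 (SE 0.0788) in A375 cells. GATA6, a factor of smooth muscle and endoderm, rose by 0.53 in 1205Lu cells (SE 0.0430, adjusted p = 3.3e-09, edgeR) and had -0.31 (SE 0.167) in A375 cells, and CRIP2, a LIM protein, had 0.49 (SE 0.0508) in A375 cells and -0.11 (SE 0.0671, adjusted p = 0.21, edgeR) in 1205Lu cells.

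Of 18 further smooth muscle genes, 14 were tested in each line, with 2 higher and 5 lower in A375 cells and 1 higher and 5 lower in 1205Lu cells (medians 0.00 and -0.33), against 29.9% higher and 27.8% lower of all genes in A375 cells and 24.0% higher and 23.0% lower in 1205Lu cells. DES, the muscle intermediate filament desmin, was higher in A375 cells, at a mean of 2.396 CPM against 0.479 CPM, a log2 fold change of 2.32 (SE 0.313). LPP and SMTN, both tied to the actin cytoskeleton of smooth muscle, were lower in both lines, with log2 fold changes of -1.39 (SE 0.0401) and -1.16 (SE 0.0521) in A375 cells. In 1205Lu cells LPP fell by 0.61 (SE 0.0202, adjusted p = 5.1e-15, edgeR) and SMTN fell by 0.59 (SE 0.0279, adjusted p = 1.2e-12, edgeR). CSRP1, a LIM protein of smooth muscle, rose by 0.66 in 1205Lu cells (SE 0.0244, adjusted p = 2.5e-14, edgeR) and had 0.04 (SE 0.0315) in A375 cells. CARMN, a smooth muscle RNA, fell by 1.19 in 1205Lu cells (SE 0.402, adjusted p = 0.023, edgeR) from a mean of 1.28 CPM to 0.559 CPM. It had 0.68 (SE 0.449) in A375 cells, and JPH2, a junctional protein of muscle, had 0.49 (SE 0.170) in A375 cells and 0.83 (SE 0.483, adjusted p = 0.19, edgeR) in 1205Lu cells. Of 11 striated muscle SRF targets, 3 were tested in A375 cells, with 0 higher and 2 lower against the same 29.9% and 27.8%, and 1 in 1205Lu cells, TNNT1, which fell by 0.76 (SE 0.0901, adjusted p = 8.4e-07, edgeR). The 2 lower in A375 cells were NPPB (-0.87, SE 0.137), a natriuretic peptide, and TNNT2 (-0.18, SE 0.0434), the cardiac troponin T.

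Of the cytoskeletal targets that MRTFs share with SRF, more were lower than higher. Of 21 tested in each line, 13 were lower and 4 higher in A375 cells (median -0.25), and 12 were lower and 6 higher in 1205Lu cells (median -0.23), against 29.9% higher and 27.8% lower of all genes in A375 cells and 24.0% higher and 23.0% lower in 1205Lu cells. MYH9, the heavy chain of non-muscle myosin, had -1.09 (SE 0.0226) in A375 cells and fell by 0.91 in 1205Lu cells (SE 0.0186, adjusted p = 2.8e-18, edgeR). The tropomyosins TPM3 and TPM4, relatives of TPM1 and TPM2, fell by 1.00 (SE 0.0184, adjusted p = 6.3e-19) and by 0.89 (SE 0.0270, adjusted p = 1.1e-15) in the edgeR fit of 1205Lu cells. In A375 cells they had -0.50 (SE 0.0174) and -0.34 (SE 0.0161), where TPM1 and TPM2 had positive values. CCN1, a matricellular protein, and ZYX, the focal adhesion protein zyxin, had opposite signs in the lines, with -0.94 (SE 0.0269) and -0.89 (SE 0.0248) in A375 cells against 0.81 (SE 0.0418, adjusted p = 3.9e-12, edgeR) and 0.30 (SE 0.0201, adjusted p = 2.2e-10, edgeR) in 1205Lu cells.

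The immediate early targets of SRF and TCFs were higher in 1205Lu cells, where 10 of 10 tested genes rose, against 24.0% of all genes, with a median log2 fold change of 0.63. In A375 cells 4 of 9 tested were higher and 1 was lower (median 0.16), against 29.9% and 27.8% of all genes. JUNB, an AP-1 subunit like FRA1, rose 2.02-fold in 1205Lu cells (log2 fold change 1.01, SE 0.0627, adjusted p = 6.5e-11, edgeR) and was 1.96-fold higher in A375 cells (0.97, SE 0.0515). EGR2, a zinc finger factor, rose by 1.06 in 1205Lu cells (SE 0.0742, adjusted p = 4.3e-10, edgeR) and was too low to test in A375 cells. FOSB, another AP-1 subunit, rose by 0.76 in 1205Lu cells (SE 0.118, adjusted p = 2.4e-05, edgeR) and had 0.14 (SE 0.150) in A375 cells. EGR3 and IER3 had 1.01 (SE 0.383) and 0.52 (SE 0.0378) in A375 cells and rose by 0.35 (SE 0.0371, adjusted p = 1.6e-07, edgeR) and 0.49 (SE 0.0245, adjusted p = 3.0e-12, edgeR) in 1205Lu cells. The level of EGR3 was low in A375 cells, at means of 0.588 CPM with si-NT and 1.19 CPM with si-FRA1.

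Of 13 genes of RhoA signaling and actin polymerization, which release MRTFs from actin, 5 were higher and 6 lower in each line (medians -0.13 in A375 cells and -0.08 in 1205Lu cells), against 29.9% higher and 27.8% lower of all genes in A375 cells and 24.0% higher and 23.0% lower in 1205Lu cells. RHOB, a small GTPase, had 1.01 (SE 0.0855) in A375 cells and rose by 0.40 (SE 0.0395, adjusted p = 7.1e-08, edgeR) in 1205Lu cells. The formin DIAPH1 had -0.79 (SE 0.0267) and fell by 0.68 (SE 0.0356, adjusted p = 4.6e-12, edgeR), the formin DIAPH3 had -0.43 (SE 0.0557) and fell by 0.50 (SE 0.0538, adjusted p = 2.1e-07, edgeR), and the kinase ROCK2 had -0.45 (SE 0.0279) and fell by 0.37 (SE 0.0233, adjusted p = 9.3e-11, edgeR) in the same order of lines. ARHGEF2, an exchange factor for RhoA, had -0.16 (SE 0.0247) in A375 cells and rose by 0.59 (SE 0.0228, adjusted p = 5.2e-14, edgeR) in 1205Lu cells. The lists were written with earlier results of these samples known, and their counts were not compared with those of other lists.

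**Figure D3:**
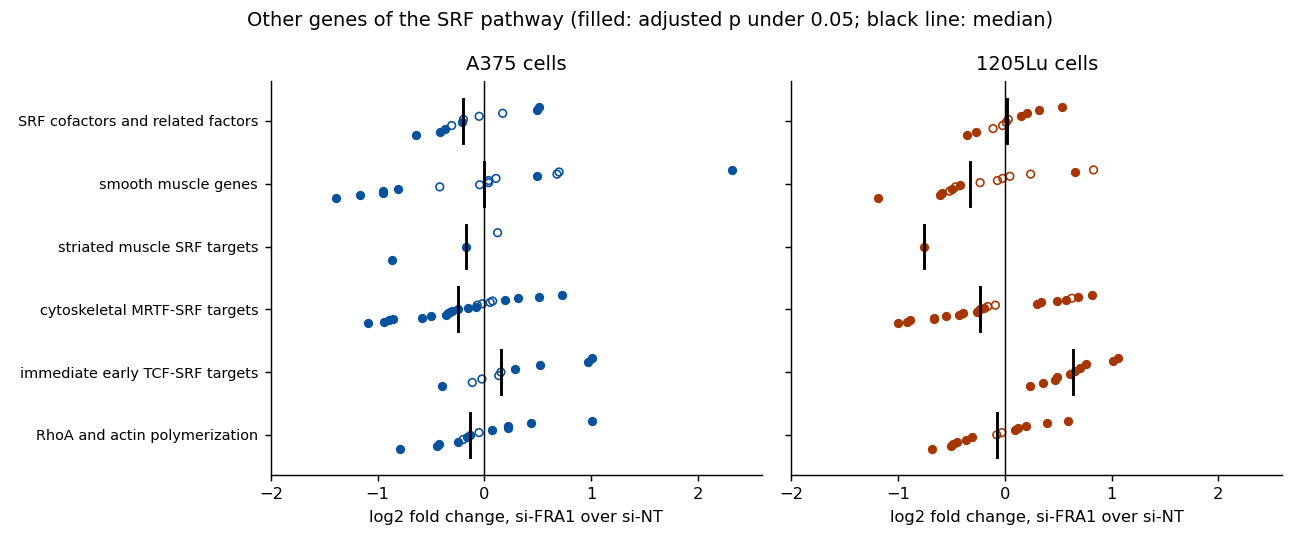
Log2 fold changes of si-FRA1 over si-NT (horizontal axis) for the tested genes of 6 lists of the SRF pathway in A375 cells (left) and 1205Lu cells (right); each point is a gene, filled at an adjusted p under 0.05, and black lines are medians. All 10 immediate early genes lie above 0 in 1205Lu cells, with a median of 0.63, while the cytoskeletal targets have medians of -0.25 and -0.23.

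Markers of other cell types moved with some of these values, and their part in the results was not tested. The cells are labelled melanoma, and the summed level of 7 melanocytic markers was 96.1 to 99.9 CPM with si-NT and 95.6 to 103.3 CPM with si-FRA1 in A375 cells, where TYR and MLANA had no more than 3 counts in any si-NT sample. It was 1328 to 1362 CPM and 1187 to 1212 CPM in 1205Lu cells, led by SOX10. The pigment genes PMEL and DCT were at means of 1.13 CPM or lower in every group, while SOX10, a neural crest factor, was present in both lines. Of the list, 2 were higher and 1 lower of 4 tested in A375 cells, and 0 were higher and 2 lower of 5 in 1205Lu cells. Over all protein-coding genes tested, 29.9% were higher and 27.8% lower in A375 cells, and 24.0% and 23.0% in 1205Lu cells. In A375 cells PMEL had a log2 fold change of 1.19 (SE 0.395), SOX10 of -0.44 (SE 0.0506), S100B of 0.42 (SE 0.344, which did not pass) and MITF of 0.29 (SE 0.0484). In 1205Lu cells SOX10 fell by 0.24 (adjusted p = 2.2e-10, edgeR) and S100B fell by 0.07 (adjusted p = 0.0042, edgeR), while DCT had -0.26, MITF -0.13 and PMEL 0.04 and did not pass. Without 1205Lu si-NT replicate 2 only 1 of them passed.

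The summed level of 7 fibroblast markers was 34.1 to 36.4 CPM with si-NT and 64.7 to 66.6 CPM with si-FRA1 in A375 cells. Against 29.9% higher and 27.8% lower of all genes there, 4 of 5 tested were higher and 0 lower. These were LUM (log2 fold change 1.64, SE 0.336), PDGFRA (1.12, SE 0.244), COL1A1 (0.96, SE 0.0799) and PDGFRB (0.80, SE 0.0603), and COL1A2 had -0.35 (SE 0.519). LUM was low, at means of 0.568 CPM with si-NT and 1.79 CPM with si-FRA1. In 1205Lu cells the sums were 199.1 to 206.7 CPM and 197.6 to 206.6 CPM, most of which was PDGFRA, at means of 192.0 and 183.7 CPM. PDGFRB, however, rose by 1.16 there as well (SE 0.116, adjusted p = 7.6e-08, edgeR), from a mean of 6.52 to 14.9 CPM, while PDGFRA fell by 0.08 (adjusted p = 0.023, edgeR). PDGFRB was thus higher upon silencing in both lines. COL1A2 (-0.51, adjusted p = 0.43, edgeR) and DCN (-0.53, adjusted p = 0.50, edgeR) did not pass in 1205Lu cells. That left 1 higher and 1 lower of 6 tested, against 24.0% and 23.0% of all genes. Only the higher one passed without 1205Lu si-NT replicate 2, si-NT replicate 3 or si-FRA1 replicate 2.

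Pericyte and vascular smooth muscle markers summed to 167.0 to 171.2 CPM and 149.1 to 157.8 CPM in A375 cells and to 356.4 to 365.8 CPM and 333.3 to 341.1 CPM in 1205Lu cells, with CSPG4, which melanoma cells also express, as the leading gene. Of them 5 were tested in each line, with 1 higher and 2 lower. Among all genes, 29.9% were higher and 27.8% lower in A375 cells, and 24.0% and 23.0% in 1205Lu cells. Without A375 si-FRA1 replicate 1 the A375 counts were 2 higher and 3 lower, and without 1205Lu si-FRA1 replicate 2 the 1205Lu counts were 0 higher and 2 lower. In A375 cells RGS5 had a log2 fold change of 1.08 (SE 0.156), ABCC9 of -0.76 (SE 0.523) and NOTCH3 of -0.59 (SE 0.107). In 1205Lu cells NOTCH3 rose by 0.57 (adjusted p = 0.011, edgeR) and ABCC9 fell by 1.27 (adjusted p = 0.029, edgeR), while MYH11, the smooth muscle myosin heavy chain, had -0.46 (adjusted p = 0.43, edgeR) at means of 0.798 and 0.581 CPM.

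Endothelial markers summed to 3.81 to 4.31 CPM and 6.34 to 7.60 CPM in A375 cells and to 2.71 to 3.68 CPM and 2.33 to 3.16 CPM in 1205Lu cells. Of 5 tested in A375 cells, TEK was higher, at means of 0.955 and 3.99 CPM (log2 fold change 2.04, SE 0.248), and KDR was lower, at means of 1.06 and 0.420 CPM (-1.35, SE 0.431). PECAM1 had 0.60 (SE 0.453) and did not pass. Without A375 si-NT replicate 1 or si-FRA1 replicate 1, TEK alone passed. The shares of all genes were 29.9% higher and 27.8% lower in A375 cells, and 24.0% and 23.0% in 1205Lu cells. Of 3 tested in 1205Lu cells, PECAM1 (-0.61), VWF (0.07) and KDR (-0.06), none passed, and without si-NT replicate 3 or si-FRA1 replicate 2 there 1 passed as lower. Immune markers stayed at or below 1.58 CPM in sum in every sample, with PTPRC the 1 tested in A375 cells (-0.28, SE 0.715, which did not pass) and 0 tested in 1205Lu cells.

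The Cut&Run table gives the reads of each sample in each consensus peak. Totals in peaks were 3354095 to 5316527 for the A375 FRA1 samples and 383994 for A375 IgG, and 583750 to 897407 for the 1205Lu FRA1 samples and 314569 for 1205Lu IgG. FRA1 totals exceeded the IgG total by 8.73 to 13.8 times in A375 cells and by 1.86 to 2.85 times in 1205Lu cells. In 1205Lu cells, the counts of the second and the third FRA1 replicate were within sampling noise of each other, and their mean was used as 1 sample. Enrichment required that every FRA1 sample reach 10 counts and also 4-fold the IgG count after 1 was added to it, a rule without a p-value since each line had 1 IgG sample.

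Peaks within 10 kb of a gene body were found for MYOCD (3), SRF (2), ACTG2 (1), CNN1 (5), TPM1 (3), TPM2 (4) and CALD1 (8), and none for ACTA2, TAGLN and MYL9. Of these 26 peaks, 12 at 6 genes were promoter peaks, within 3 kb of an annotated start of the gene (GENCODE release 44), and 6 lay closer to the start of another protein-coding gene. In A375 cells 13 of the 26 (50.0%) were enriched, against 57.4% of all consensus peaks, and in 1205Lu cells 0 were, against 7.09%. With each library scaled to the same total in peaks, 0 of the 26 passed in A375 cells, against 1.61% of all peaks. Peaks near these genes were thus not enriched more often than other peaks, and FRA1 in the 1205Lu samples was not detectable above IgG near them at this depth by this rule.

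All 3 peaks inside MYOCD were enriched in A375 cells. The strongest, at chr17:12730468-12731332 in an intron 65.0 kb downstream of the start, had 116, 193 and 146 counts in the A375 FRA1 samples against 5 in IgG. In 1205Lu cells it had 5, 0 and 2 counts against 6 in IgG, so every A375 FRA1 sample was far above every other library. The difference between the lines on TMM-scaled counts was a log2 fold change of 2.94 for A375 over 1205Lu (SE 0.435, adjusted p = 3.5e-07, edgeR). Its neighbour at chr17:12727189-12727720, in an intron too, had 29, 48 and 35 counts against 5 in A375 cells and 2, 1 and 2 against 4 in 1205Lu cells (log2 fold change 1.499, SE 0.606, adjusted p = 0.038, edgeR). The third, at chr17:12765360-12766154 in the 3′ UTR in the last exon, had 24, 34 and 29 counts against 2 in A375 cells and 0, 1 and 2 against 5 in 1205Lu cells (log2 fold change 2.12, SE 0.811, adjusted p = 0.028, edgeR). The difference at the intronic neighbour no longer passed without A375 FRA1 replicate 1, 2 or 3, where it was 1.49, 1.43 and 1.504. Without 1205Lu FRA1 replicate 1, which leaves a single 1205Lu sample, it was 1.42, that of the 3′ UTR peak was 1.06, and neither passed. There was no peak within 3 kb of an annotated MYOCD start. Upstream of the gene, 4 more peaks lay between 10 and 50 kb away, of which 3 were enriched in A375 cells and 0 in 1205Lu cells. The largest of them, at chr17:12627016-12628630, had 90, 164 and 130 counts against 10 in A375 cells and 7, 7 and 5 against 7 in 1205Lu cells (log2 fold change 1.58, SE 0.351, adjusted p = 0.00023, edgeR). The next, at chr17:12636782-12637633, had 45, 74 and 62 counts against 1 in A375 cells and 3, 1 and 2 against 2 in 1205Lu cells (log2 fold change 1.87, SE 0.515, adjusted p = 0.0025, edgeR).

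**Figure D4:**
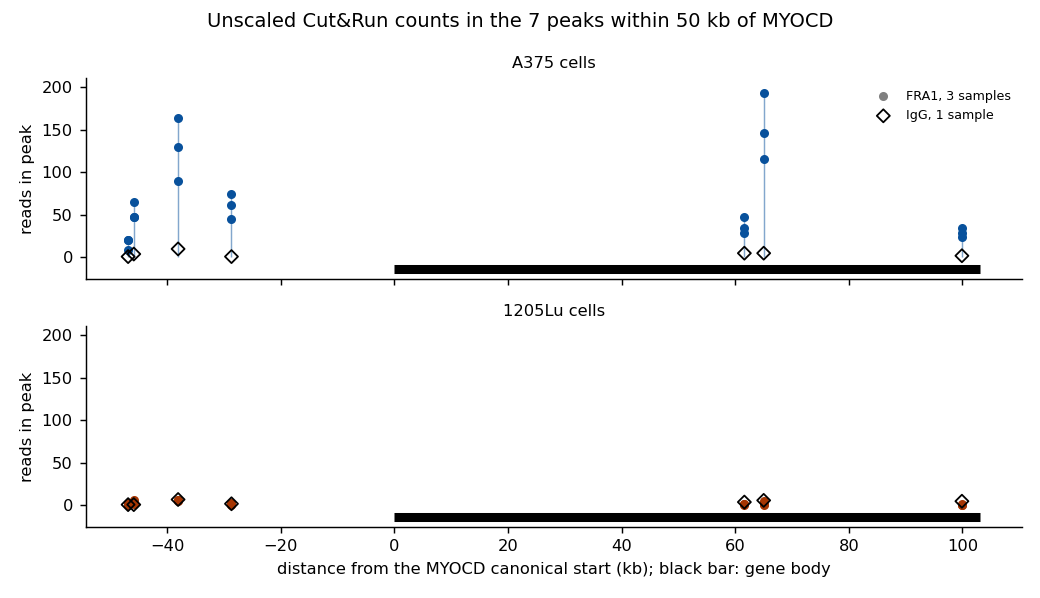
Unscaled reads (vertical axis) in the 7 consensus peaks within 50 kb of MYOCD, by distance of the peak centre from the canonical start in kb, in A375 cells (top) and 1205Lu cells (bottom); dots are the 3 FRA1 samples, diamonds the IgG sample and the black bar the gene. The intronic peak at 65.0 kb reaches 193 reads in A375 cells, and all 1205Lu values stay at or below 7.

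Of these 3 peaks, the strongest and the 3′ UTR peak held the FOS/JUN site TGACTCA within 100 bases of the centre, the sequence that dimers of FRA1 with a JUN protein bind. They are shown for that reason, on the plus strand of GRCh38, with the site in capitals.
MYOCD intronic peak, central bases, chr17:12730800-12730999: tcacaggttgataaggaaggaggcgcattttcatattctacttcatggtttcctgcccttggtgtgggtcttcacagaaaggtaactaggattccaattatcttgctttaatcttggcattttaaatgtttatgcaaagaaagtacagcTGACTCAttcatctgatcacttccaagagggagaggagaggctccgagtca
MYOCD 3′ UTR peak, bases around the site, chr17:12765738-12765766: ctccaacccgaTGACTCAcagctacttgc
The site lay 52 bases downstream of the centre of the intronic peak and 5 bases upstream of that of the 3′ UTR peak. Over the 26 peaks, 6 (23.1%) held TGACTCA or TGAGTCA within 100 bases of the centre, against 28.5% of all consensus peaks, and among the 13 enriched in A375 cells the share was 30.8%. The CArG box was within the same distance in 2 of the 26 (7.69%), against 1.14% of all peaks. These were the SRF promoter peak, with both boxes shown above, and a CALD1 intron peak. A motif match is a description of the sequence and not evidence of binding.

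SRF had a promoter peak at chr6:43170795-43171553 with 79, 116 and 99 counts against 13 in IgG in A375 cells and 21, 13 and 22 counts against 10 in 1205Lu cells. An intron peak at chr6:43174312-43175106 had 84, 173 and 138 counts against 18 in A375 cells and 21, 37 and 38 counts against 10 in 1205Lu cells. Both were enriched in A375 cells, and the difference between the lines did not pass, with log2 differences of -0.38 (SE 0.264, adjusted p = 0.25, edgeR) and -0.56 (SE 0.239, adjusted p = 0.052, edgeR). The difference at the intron peak passed in 7 of 11 alternative settings, of which 6 gave negative values and 1, without scaling, a positive one. The intron peak held TGACTCA 139 bases downstream of its centre.
SRF intron peak, bases around the site, chr6:43174818-43174877: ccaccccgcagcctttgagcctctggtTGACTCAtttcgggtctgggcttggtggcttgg

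The contractile genes differed in their peaks. The largest counts near any of the genes were at chr19:11531614-11533364, upstream of CNN1 but closer to the start of ECSIT, with 402, 637 and 522 counts against 19 in A375 cells and 14, 33 and 15 counts against 5 in 1205Lu cells. This peak had a log2 fold change of 2.07 for A375 over 1205Lu (SE 0.244, adjusted p = 2.9e-09, edgeR). It lay 5.4 kb from a CNN1 start and 2.4 kb from that of ECSIT. CNN1 had at most 16 counts per A375 library, and the level of ECSIT is not given here. Of the 2 promoter peaks of CNN1, that at chr19:11535662-11536491 had 90, 133 and 103 counts against 8 in A375 cells and 20, 36 and 40 against 11 in 1205Lu cells (log2 fold change -0.80, SE 0.238, adjusted p = 0.0050, edgeR). The other, at chr19:11545695-11546404, had 58, 82 and 63 against 10 in A375 cells and 5, 1 and 3 against 12 in 1205Lu cells (log2 fold change 1.56, SE 0.471, adjusted p = 0.0056, edgeR). A further upstream peak at chr19:11528618-11529441, also closer to ECSIT, had 305, 437 and 395 counts against 23 in A375 cells and 21, 41 and 50 against 11 in 1205Lu cells (log2 fold change 0.80, SE 0.223, adjusted p = 0.0027, edgeR). It was 0.25 without 1205Lu FRA1 replicate 1 and no longer passed. All 4 were enriched in A375 cells.

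In CALD1, the peak at chr7:134898939-134900298 had 292, 464 and 387 counts against 9 in A375 cells and 11, 11 and 14 counts against 12 in 1205Lu cells. It lay in an intron of the canonical transcript and was higher in A375 cells, with a log2 fold change of 2.34 (SE 0.273, adjusted p = 2.1e-09, edgeR). The other 7 peaks of CALD1 had at most 74 counts in any FRA1 sample, and 4 of them were promoter peaks at its several starts. Of these 4, those at chr7:134742102-134742859 (20, 33 and 38 counts against 2) and chr7:134779303-134779907 (36, 65 and 63 against 8) were enriched in A375 cells. The strongest of CALD1 in 1205Lu cells, at chr7:134886116-134886876, had 14, 25 and 21 counts against 9 there and 42, 74 and 55 against 11 in A375 cells.

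The tropomyosin genes and ACTG2 had weak peaks within 10 kb. Within 50 kb, 8 of 12 peaks of TPM1, 3 of 11 of TPM2 and 2 of 6 of ACTG2 were enriched in A375 cells. For MYOCD this was 6 of 7, and over all consensus peaks 57.4%. In 1205Lu cells 1 peak of TPM1 and 2 of ACTG2 within 50 kb were enriched. Both ACTG2 peaks lay closer to the start of DGUOK. The 2 ACTG2 peaks enriched in A375 cells lay closer to that of STAMBP. Of the other peaks enriched in A375 cells, the 3 of TPM2 were closest to SIT1, CA9 and TLN1. Those downstream of TPM1 were closest to LACTB. TPM1 had promoter peaks at chr15:63044693-63045482 (42, 55 and 46 counts against 12 in A375 cells, 11, 4 and 6 against 4 in 1205Lu cells) and at chr15:63047856-63048492 (31, 36 and 29 against 5, and 15, 6 and 10 against 8), and the second was enriched in A375 cells. TPM2 had promoter peaks at chr9:35681801-35682671 (24, 18 and 27 against 5 in A375 cells, 8, 7 and 5 against 8 in 1205Lu cells) and at chr9:35688617-35689138 (19, 28 and 24 against 6, and 19, 16 and 20 against 11). The first lay 7.7 kb downstream of the canonical start, at the 3′ end of the gene. It was 2.1 kb from the nearest annotated TPM2 start and 1.1 kb from that of CA9. None of the 4 TPM2 peaks within 10 kb was enriched in either line. The ACTG2 promoter peak at chr2:73890548-73890893 had 5, 7 and 3 counts against 2 in A375 cells and 11, 13 and 18 against 5 in 1205Lu cells, where it was the higher one also without scaling.

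Between the lines, 25 of the 26 peaks were tested on TMM-scaled counts of the FRA1 samples. Of these, 7 had higher scaled counts in A375 cells and 8 in 1205Lu cells, against 25.9% and 22.5% of 53281 peaks tested. The scaling sets this split, and 0 of the 26 peaks were enriched over IgG in 1205Lu cells. Higher scaled counts in 1205Lu cells therefore do not show more FRA1. TMM scaling weighs the smaller 1205Lu totals up, and without scaling 23 peaks were higher in A375 cells and 1, that of ACTG2, in 1205Lu cells. The 7 peaks with higher scaled counts in A375 cells were those inside MYOCD, the CALD1 intron peak and 3 of the CNN1 peaks. They were higher without scaling too, but TMM weighs the 1205Lu counts up, so this had to follow and is no separate check.

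**Figure D5:**
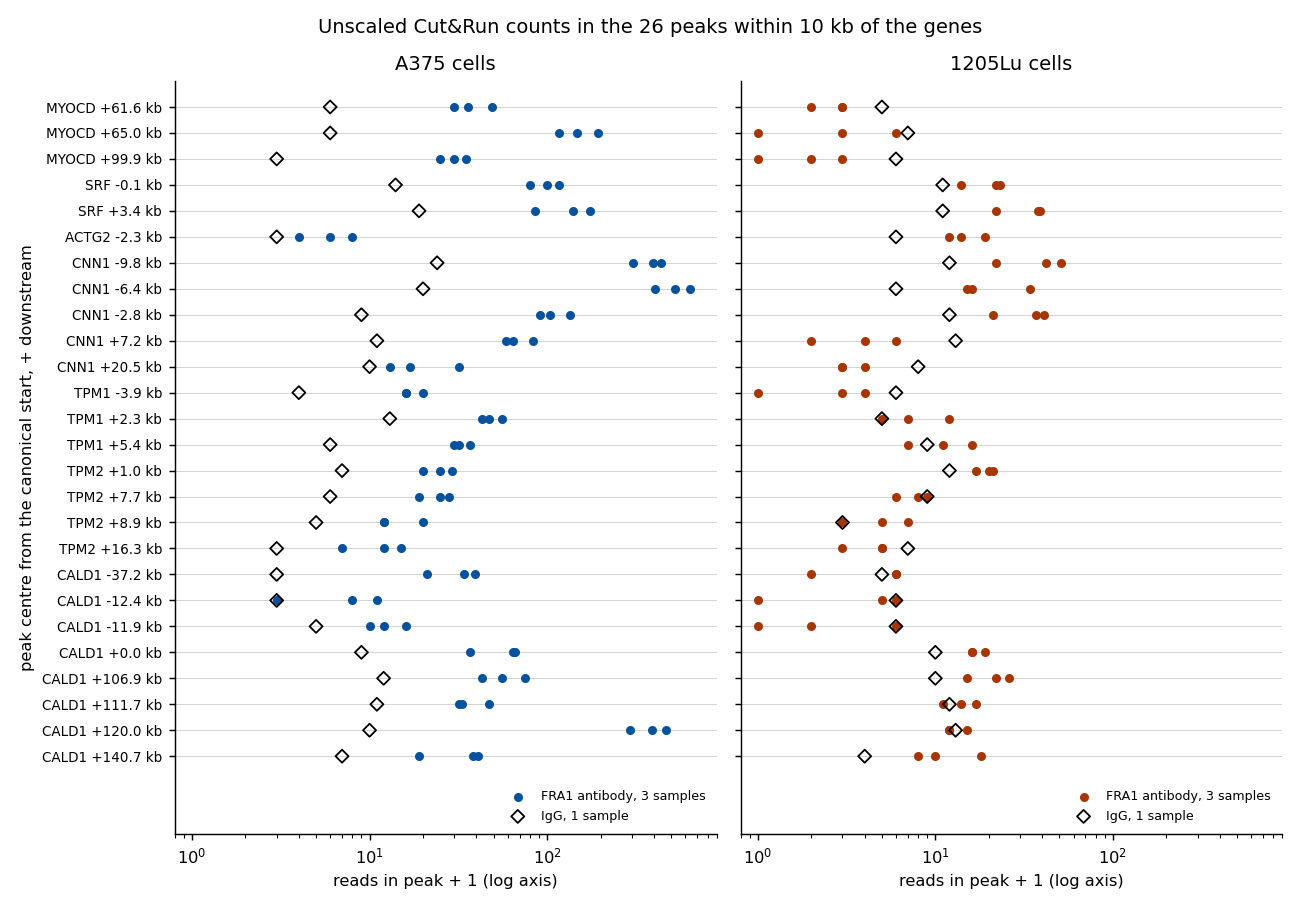
Unscaled reads plus 1 (horizontal log axes) in each of the 26 peaks near the genes, named by gene and by distance of the peak centre from the canonical start, in A375 cells (left) and 1205Lu cells (right). FRA1 samples are dots and IgG is a diamond; in A375 cells 13 peaks were enriched, and in 1205Lu cells 0.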

How the data were processed

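RNA-seq covered A375 and 1205Lu cells with si-NT or si-FRA1 (12 samples) and Cut&Run covered FRA1 and IgG in both lines (8 samples). The authors deposited expected counts per gene, made with cutadapt 1.8.1, STAR 2.7.7a and RSEM 1.3.0 on GRCh38 with Gencode 30, per the study's methods and the submitters' processing notes. They also deposited raw counts of reads per consensus peak, from Bowtie2 2.4.1 alignments to GRCh38 and MACS2 peaks. Whether gene counting used the strand is not given in the sources used here.

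Expected counts were used as deposited, filtered by expression and TMM-scaled. They were tested by the quasi-likelihood test of edgeR 4.0.16 in R 4.3.3, with Benjamini-Hochberg adjustment over all genes or peaks. DESeq2 1.42.0, other filters and scalings, a replicate block and leaving out each sample were alternatives. Standard errors are the log2 fold change divided by the square root of its F statistic. Replicate numbers do not pair the samples: deviations of equally numbered samples correlated at -0.0535 to 0.0496. Counts of 1205Lu FRA1 replicates 2 and 3 differed by a chi-square of 1.012 per degree of freedom over 10418 peaks, against 1.486 and 1.644 for the other 1205Lu pairs and 1.066 to 1.248 for the A375 pairs, which were kept apart. The close pair was counted as 1 sample. Keeping it as 2 samples was an alternative, with 16 peaks that differed between the lines in place of 15. Gene positions, starts and distances came from GENCODE release 44, promoter sequences from RefSeq. The scripts were tested on simulated data.

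The genes and lists were chosen with earlier results of these data known. Besides the 10 genes and FOSL1, the 3 genes per list with the largest change in each line and the 5 genes most correlated with MYOCD (mean CPM of at least 1) were named, with the peaks at promoters and, per gene and line, the one with the highest mean FRA1 count. The upstream peaks of MYOCD beyond 10 kb, the second upstream peak of CNN1 and the other peaks inside MYOCD were named after their values were seen.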

Additional observations from a re-analysis of the deposited data

Results flagged for a closer look

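MYOCD, TPM1 and TPM2 changed in opposite directions in the 2 lines upon FRA1 silencing, with every si-FRA1 sample of A375 cells above and every si-FRA1 sample of 1205Lu cells below the si-NT samples of the same line. The log2 fold change in A375 cells exceeded that in 1205Lu cells by 4.018 for MYOCD, by 0.4945 for TPM1 and by 0.6111 for TPM2. These differences were not tested, because they contain the A375 contrast from which MYOCD was chosen. The 1205Lu change of MYOCD, which rests on 6 to 25 counts per sample, did not pass its own test, whereas those of TPM1 and TPM2 did. Of all protein-coding genes tested, 29.9% were higher in A375 cells and 23.0% lower in 1205Lu cells at the adjusted p. The share of all genes with such opposite changes was not computed, so whether these genes stand out is not known.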

How the results depend on the processing

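The count of 2 genes past the limits in A375 cells, MYOCD and SRF, was 2 under all 13 alternatives that kept the fold limit and 7 at the adjusted p without it. In 1205Lu cells the count of 0 stayed 0 under 13 alternatives and was 5 without the fold limit. Between the lines with si-NT the count of 2 became 1 when at least 10 counts were required in every sample, which removes MYL9, and 5 without the fold limit, it was 3 with DESeq2 and with no filter, and it was 2 on leaving out any sample. The SRF difference of -0.16 between the lines did not pass with DESeq2 (-0.099), with no filter (-0.026), in a fit of all 12 samples (-0.085) or without A375 si-NT replicate 2 (-0.100). In the fit of all 12 samples the MYOCD difference passed (0.701, adjusted p = 0.015), and with no filter that of ACTA2 did (0.25, adjusted p = 0.049). In 1205Lu cells the log2 fold change of MYOCD stayed between -1.06 and -0.55 and did not pass under any of 12 alternatives. In 1205Lu cells the count of 2 fibroblast markers past the test was 1 under 6 alternatives, that of 2 melanocytic markers was 1 under 3, and that of 0 endothelial markers was 1 under 3. In A375 cells the count of 3 pericyte and vascular smooth muscle markers was 5 under 1 alternative, and that of 2 endothelial markers was 1 under 3.

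The 13 of 26 peaks enriched in A375 cells became 21 at 2 times IgG, 6 at 8 times IgG and 0 after scaling to the same total. The count was 31 of 64 peaks within 50 kb, 6 of 12 promoter peaks, and 13 to 15 on leaving out each FRA1 sample. At the main limit 57.4% of all consensus peaks were enriched, and the shares of all peaks at 2 and 8 times IgG were not computed. For 1205Lu cells the 0 of 26 became 1 at 2 times IgG and 3 of 64 within 50 kb, against 7.09% of all peaks at the main limit. The 15 peaks that differed between the lines became 24 without scaling, 4 with at least 10 counts in every FRA1 sample, which leaves fewer peaks to test, and 32 within 50 kb, and 12 to 16 on leaving out each sample. Without scaling 7 peaks that were higher in 1205Lu cells had positive values of A375 over 1205Lu, of which all but the TPM2 peak passed the test in that direction: the CNN1 promoter peak at 11535662 (1.90), the TPM1 promoter peak at 63047856 (1.47), the TPM2 promoter peak at 35688617 (0.35, adjusted p = 0.43) and the CALD1 peaks at 134779303 (1.81), 134886116 (1.62), 134890799 (1.47) and 134920097 (1.65). With DESeq2 the intronic neighbour (1.36, adjusted p = 0.16) and the 3′ UTR peak of MYOCD (2.00, adjusted p = 0.13) did not pass, while the strongest MYOCD peak passed under all 10 alternatives, between 2.68 and 5.60. Over whole peaks, 11 of the 26 held a FOS/JUN site, against 6 near the centre. The causes were not tested.

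With the replicate number as a block, the counts past the limits were 2 in A375 cells, 0 in 1205Lu cells and 2 between the lines, and 16 peaks differed. The replicate block changed the call of the SRF intron peak (-0.65, adjusted p = 0.015) and of none of the 10 genes or of the other peaks tested in both fits. The samples share only a number.

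Depth limits MYOCD, CNN1, MYL9 and ACTG2 in 1205Lu cells, with 25 counts or fewer per sample, and the peaks in 1205Lu cells, where no FRA1 sample had more than 50 counts in any of the 26.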
